A study of Mus musculus with 10 samples.

Results

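Wild-type set 2 was compared with wild-type set 1, a pair of unedited E14 mouse embryonic stem cell sets sequenced as controls for a point mutant of ANKRD11. Genes were kept where their TPM (an abundance per transcript length, scaled to one total per library) averaged at least 1 over the wild-type libraries, which left 12765 of the 55401 genes listed. The comparison rests on 4 of the 10 libraries in the series, 2 from each wild-type set. Both sets carry the genotype label wild type and the label untreated, and the cell line is E14, a mouse embryonic stem cell line whose tissue label is embryo. The other 6 libraries come from 3 sets of E14 cells with the Y347A mutation of ANKRD11, made by CRISPR/Cas9 and labelled as mutated, 2 libraries a set, and are used here only beside the wild-type values. The labels number the sets without saying whether a set is a clone, a thaw, a culture or a preparation, and they do not say whether the edited cells are 1 clone or several. Each wild-type set is therefore 1 unit seen through 2 libraries. The p-values below measure the difference against the spread between libraries within sets, which may be technical, and do not say how far another pair of wild-type sets would differ.

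Mouse embryonic stem cells hold a naive pluripotent state that LIF, acting through STAT3, supports, while FGF4, acting through the MAP kinase ERK, moves cells towards the formative state from which they can differentiate. Transcription factors such as Oct4, Sox2 and Nanog form the core of the network, Esrrb, Klf4, Tbx3 and Gbx2 hold its naive side, and Otx2 marks the way out. Cultures of 1 line can drift along this axis without any edit. Glycolysis supplies much of their energy, and antioxidant, iron and lysosomal genes keep redox balance and turnover of the cell's contents.

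Every library summed to 1000000 TPM within rounding, so the sequencing depth is unknown, and a library held 12473 to 12812 genes at 1 TPM or more. All 8 stem cell markers were at 1 TPM or more in every wild-type library, with a summed level of 2793 and 2784 TPM in set 1 and 2957 and 2875 TPM in set 2, which did not overlap. As single genes, Oct4, Sox2, Nanog and Zfp42 were higher in set 2 without overlap, and Klf4, Sall4 and Utf1 overlapped. Esrrb went the other way, at 261 and 257 TPM in set 1 and 234.8 and 234.6 TPM in set 2. Libraries of the sets did not overlap for 54.2% of all tested genes. Marker sums were 4.64 to 7.25 TPM for 8 fibroblast feeder genes, with Postn and Dcn at 0, 0.630 to 1.65 TPM for 6 primitive endoderm genes, 1.31 to 1.85 TPM for 5 mesoderm genes, 3.36 to 4.42 TPM for 5 trophoblast genes and at most 0.130 TPM for 4 blood genes. The neural sum of 17.8 to 21.7 TPM was nearly all Tubb3, with Pax6, Neurog2 and Dcx at 0. The sums overlapped between the sets for feeder, neural and two-cell-like genes. Among other lineages they did not overlap for primitive endoderm (0.780 and 0.630 TPM in set 1, 1.17 and 1.65 TPM in set 2), mesoderm (1.73 and 1.85, then 1.60 and 1.31 TPM) or trophoblast (3.97 and 4.42, then 3.40 and 3.36 TPM). The trophoblast factor Cdx2 was at 1.44 and 1.51 TPM in set 1 and 0.470 and 0.350 TPM in set 2. Eomes, of the same list, went the other way, from 1.75 and 1.81 TPM to 2.13 and 1.97 TPM. Gata3 overlapped between the sets, and Elf5 and Hand1 were at 0.07 TPM or less. The part of these marker levels in the differences below was not tested. In bulk RNA, fewer cells of a type and less RNA per cell cannot be told apart. Ankrd11 read 66.0 and 65.2 TPM in set 1 against 58.0 and 60.4 TPM in set 2, a log2 difference of -0.15 ± 0.06 (SE) that did not pass (limma adjusted p = 0.221).

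Few genes passed the test between the wild-type sets, and most of those moved by less than a doubling. On the log2(TPM + 1) scale, which understates the change of low genes and on which all differences below are given as set 2 minus set 1, the median absolute difference between set means was 0.119. The median absolute difference between the 2 single libraries within a set was 0.0843 for set 1 and 0.0902 for set 2. The spread over genes was no larger between the sets, with an SD of 0.312 between set means against 0.363 and 0.366 within sets, and 184 genes differed by at least 1 against 197 and 209. Means of 2 libraries vary less than single libraries do, so the values within and between sets are not on an equal footing. At a Benjamini-Hochberg adjusted p under 0.05 in limma, fitted on all 10 libraries as 5 sets, 363 of 12765 genes were called (2.84%), 148 higher in set 2 (1.16%) and 215 lower (1.68%). Fitted on the 4 wild-type libraries alone the count was 101 (38 higher, 63 lower). Only 16 of those higher (0.125%) and 14 of those lower (0.11%) moved by at least 1 on the log2 scale, which is a doubling or more. At an unadjusted p under 0.05 in the fit on all 10 libraries, 2625 of the 12765 genes passed in either direction. Counts of list members at that level are to be read beside this share. The 2 libraries of one set lay wholly above or wholly below the 2 of the other for 6916 genes (54.2%), 3028 with set 2 above (23.7%) and 3888 with set 2 below (30.5%). Calls came more often from abundant transcripts, being 0.54% higher and 0.58% lower among genes of 1 to 3 TPM and 2.86% in each direction at 100 TPM or more, where the median SE was 0.043 against 0.186. The called genes included 332 protein-coding genes, 10 processed pseudogenes and 7 lincRNAs. When any 1 wild-type library was left out, 51 genes were called without set 1 replicate 1, 52 without set 1 replicate 2, 56 without set 2 replicate 1 and 75 without set 2 replicate 2, and the direction of all 363 genes was the same in each of these fits.

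The called genes also differed in transcript length and base composition. Genes higher in set 2 had a median transcript length of 2220 bases and 52.9% GC, genes lower in set 2 had 3669 bases and 47.0% GC, and all tested genes had 3055 bases and 49.6% GC. Across 12752 genes with a position, Spearman's rho of the difference between sets was -0.223 with length and 0.164 with GC content. Between the 2 libraries of a set the 2 values were -0.022 and 0.001 for set 1, then 0.082 and -0.091 for set 2. After a lowess correction per library, 383 genes were called for GC content and 435 for length, 300 and 325 of them among the 363. The part of length and GC content in the list medians and shares of positive differences given below was not tested. Over all tested genes the median difference was -0.016 and 46.4% of differences were positive, and list values are to be read beside these.

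The 15 genes with the largest rise in set 2, predicted genes passed over, included genes of calcium-binding, retinoid-binding, meiotic and signalling proteins. Calb2 encodes calretinin, a calcium-binding protein of neurons (ENSMUSG00000003657.9, GRCm38 chromosome 8, 110137502 to 110168210, minus strand). Its level was 1.28 and 1.53 TPM in set 1 and 8.69 and 8.89 TPM in set 2, a difference of 2.03 ± 0.10 (limma adjusted p = 0.00022). Its mutant set means were 13.8, 1.12 and 4.19 TPM, so the gene varied as widely between mutant sets as between wild-type sets. Crabp1, which binds retinoic acid in the cytoplasm (ENSMUSG00000032291.8, chromosome 9, 54764748 to 54773110), was at 7.95 and 6.99 TPM in set 1 and 18.5 and 17.8 TPM in set 2 (1.18 ± 0.20, limma adjusted p = 0.0275). Both set 2 libraries of each of these genes lay above both set 1 libraries, as the naming rule required.

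Fgf17, a ligand of the FGF8 subfamily, went from 0.17 and 0.50 TPM to 2.24 and 2.17 TPM, so set 1 was near the lower end of what is measured. Rasgrp2, an exchange factor that activates the small GTPase Rap1, was at 8.59 and 8.91 TPM in set 1 and 19.9 and 19.9 TPM in set 2. Tgfbi, an extracellular matrix protein induced by TGF-beta, read 1.18 TPM in both set 1 libraries and 3.38 and 3.67 TPM in set 2. The synaptonemal complex gene Sycp3 rose from 4.24 and 5.21 TPM to 10.9 and 11.7 TPM, and Bhmt, which remethylates homocysteine with betaine, from 8.45 and 8.24 TPM to 18.7 and 17.0 TPM. Serpina3m, one of a cluster of near-identical serpin genes whose reads may be split uncertainly, rose from 4.69 and 4.89 TPM to 10.8 and 12.4 TPM. A further 6, with differences between 0.91 and 1.38, were Calml4, Gngt2, Smarcd3, Actn3, Ap3b2 and Cdkl4, all under 7 TPM.

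**Figure D1:**
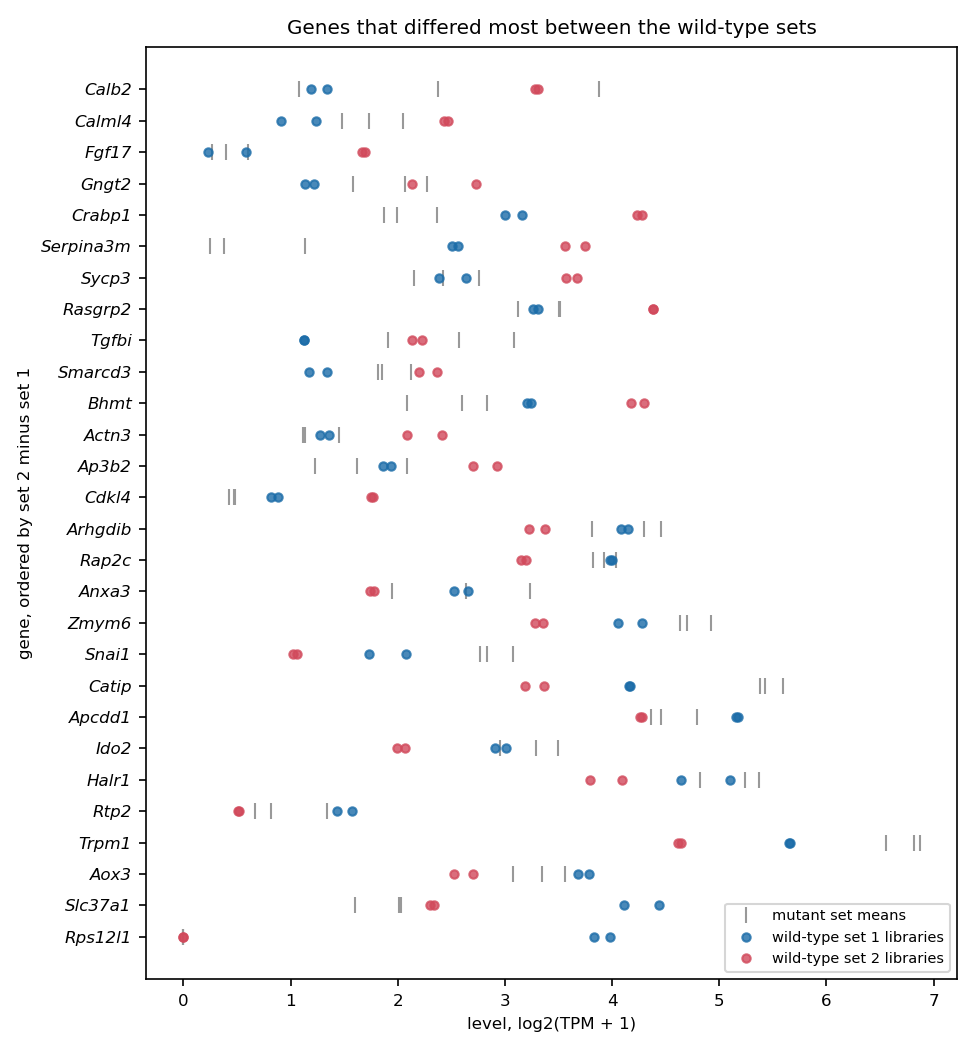
Levels of 28 of the 30 genes that differed most between the wild-type sets by the naming rule, as log2(TPM + 1), ordered by the difference of set 2 minus set 1. Blue and red points are the 2 libraries of set 1 and of set 2, and grey ticks are the means of the 3 mutant sets. For Trpm1 the mutant sets lie above set 1 and set 2 lies below it, whereas for Slc37a1 set 2 lies close to the mutant sets.

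The genes that fell most in set 2 included a transporter and a channel. Slc37a1, a phosphate-linked sugar phosphate exchanger of the endoplasmic reticulum (ENSMUSG00000024036.16, chromosome 17, 31286792 to 31350739), was at 20.7 and 16.3 TPM in set 1 and 3.93 and 4.07 TPM in set 2, a difference of -1.96 ± 0.17 (limma adjusted p = 0.00289). Trpm1, a cation channel of melanocytes and retinal bipolar cells (ENSMUSG00000030523.18, chromosome 7, 64153835 to 64269775), was at 49.4 and 49.1 TPM in set 1 and 23.5 and 24.0 TPM in set 2 (-1.02 ± 0.05, limma adjusted p = 0.00022). In both genes the replicates of a set lay far closer to each other than the sets did. Aox3, an aldehyde oxidase, fell from 11.8 and 12.8 TPM to 5.53 and 4.74 TPM. Ido2, a tryptophan-degrading dioxygenase, fell from 7.04 and 6.49 TPM to 2.99 and 3.20 TPM. Trpm1 was the most abundant of these genes, and the others read 20.7 TPM or less in each wild-type library.

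Apcdd1, a membrane inhibitor of Wnt signalling, fell from 34.6 and 35.1 TPM to 18.4 and 18.2 TPM. Snai1, a zinc finger repressor that drives epithelial to mesenchymal transition, fell from 2.32 and 3.23 TPM to 1.08 and 1.03 TPM. Catip, a ciliary actin regulator, fell from 16.8 and 17.0 TPM to 8.10 and 9.31 TPM. It lies on chromosome 1 between Tmbim1 (-0.44) and Slc11a1 (-0.47), which were both called lower as well. Halr1, a noncoding RNA, Zmym6, Anxa3, the Rap GTPase Rap2c, the GTPase inhibitor Arhgdib and the olfactory receptor transporter Rtp2 each fell by less than 1 on the log2 scale. For Rap2c the libraries read 15.04 and 14.8 TPM in set 1 and 8.17 and 7.87 TPM in set 2.

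Processed pseudogenes gave the widest gaps, and their reads cannot be assigned with certainty, since they are near copies of expressed genes. Rps12l1, a processed copy of a ribosomal protein gene, was at 13.3 and 14.8 TPM in set 1 and is listed at 0 in both set 2 libraries and in all 6 mutant libraries, so no fold is given (limma adjusted p = 5.93e-05). Gm12328, a processed pseudogene outside the naming rule and chosen after its values were seen, was at 69.8 and 39.4 TPM in set 1 and is likewise listed at 0 in the other 8 libraries. Gm49739, chosen the same way, was at 0.17 and 0.00 TPM in set 1 and 85.0 and 44.9 TPM in set 2, with mutant set means of 138, 97.0 and 131 TPM.

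Signalling genes were called one by one and not as whole pathways. Across 14 signalling lists with 233 tested genes, 12 genes were higher and 7 lower (8.15% called, against 2.84% of all tested genes). These lists were drawn up with earlier results of these data known, so the share is a description. In the LIF and STAT3 list 1 of 18 rose and 1 fell. Junb, an AP-1 subunit induced within minutes of stimulation, rose from 4.07 and 3.83 TPM to 6.61 and 6.05 TPM, and Gbx2, a homeobox target of STAT3, fell from 14.97 and 15.8 TPM to 9.54 and 9.65 TPM (-0.63 ± 0.06, limma adjusted p = 0.00289). Socs3, the feedback inhibitor of the pathway, chosen after its values were seen, was at 46.0 and 41.9 TPM in set 1 and 44.6 and 45.4 TPM in set 2, and its libraries overlapped. In the FGF and ERK list of 22 genes Rasgrp2 rose, and the ETS factor Etv1 (-0.57 ± 0.10) and the ERK feedback inhibitor Spry2 fell, Spry2 from 29.3 and 28.1 TPM to 20.4 and 19.3 TPM. Etv1 missed the threshold with the GC correction and with the length correction. Of 17 immediate early genes, Junb rose and Klf6 fell (-0.42 ± 0.06).

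In the Wnt list of 24 genes, Ccnd1, which encodes cyclin D1, rose from 13.5 and 12.0 TPM to 17.8 and 18.4 TPM. Cdx1, a homeobox gene induced by Wnt and retinoic acid, fell from 31.6 and 32.6 TPM to 20.2 and 20.0 TPM (-0.65 ± 0.06, limma adjusted p = 0.00313). The median over the 24 genes was -0.101, against -0.016 over all tested genes. Within the TGF-beta superfamily, Tgfbi was the call among 9 TGF-beta genes and Tsc22d1, a leucine zipper factor, rose slightly among 18 BMP genes (0.19 ± 0.03). None of 19 Nodal and activin genes passed in limma, with 4 higher and 1 lower at an unadjusted p under 0.05. Over all tested genes 2625 of 12765 reached that level in either direction. The ligand Nodal was at 26.5 and 26.5 TPM in set 1 and 31.5 and 32.01 TPM in set 2 (0.25 ± 0.07, limma adjusted p = 0.0858), and its co-receptor Tdgf1 differed by 0.11 ± 0.03 (limma adjusted p = 0.118).

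The retinoid list had a median of 0.151 over 12 genes. Crabp1 and Fabp5, a fatty acid binding protein that also carries retinoic acid to the nucleus, rose, Fabp5 from 89.8 and 90.0 TPM to 106 and 105 TPM. The call of Fabp5 (limma adjusted p = 0.0451) held in 3 of 11 alternatives that keep all libraries of both sets, and was lost under both other scalings and under the GC and length corrections. Igfbp4, which sequesters insulin-like growth factors, rose from 4.25 and 4.70 TPM to 7.23 and 7.47 TPM, the single call among 12 genes of that pathway. Tead1, the DNA-binding partner of YAP, fell from 59.9 and 59.6 TPM to 39.9 and 44.0 TPM, the single call among 18 Hippo genes. Of 18 interferon and antigen presentation genes, the membrane proteins Ifitm3 and Ifitm1, neighbours on chromosome 7 (0.42 ± 0.05 and 0.24 ± 0.03), rose, and B2m, the light chain of class I molecules, fell from 21.4 and 19.1 TPM to 14.5 and 14.7 TPM. The call of B2m held in 6 of the 11 alternatives and was lost under the GC correction. Of 28 genes of p53 and its targets, Ddit4, an inhibitor of mTORC1 (77.1 and 77.0 TPM to 96.3 and 96.4 TPM), and cyclin G1 (Ccng1, 0.22 ± 0.04) rose. At an unadjusted p under 0.05, 11 of the 28 were higher and 1 lower, beside 2625 of all 12765 tested genes in either direction. No gene passed among 16 Notch genes (limma, 2 higher and 0 lower at an unadjusted p under 0.05; Hes1 0.28 ± 0.12, Jag1 0.31 ± 0.11) or 8 Hedgehog genes (1 higher and 0 lower; Smo 0.27 ± 0.12, Cdon -0.26 ± 0.14).

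**Figure D2:**
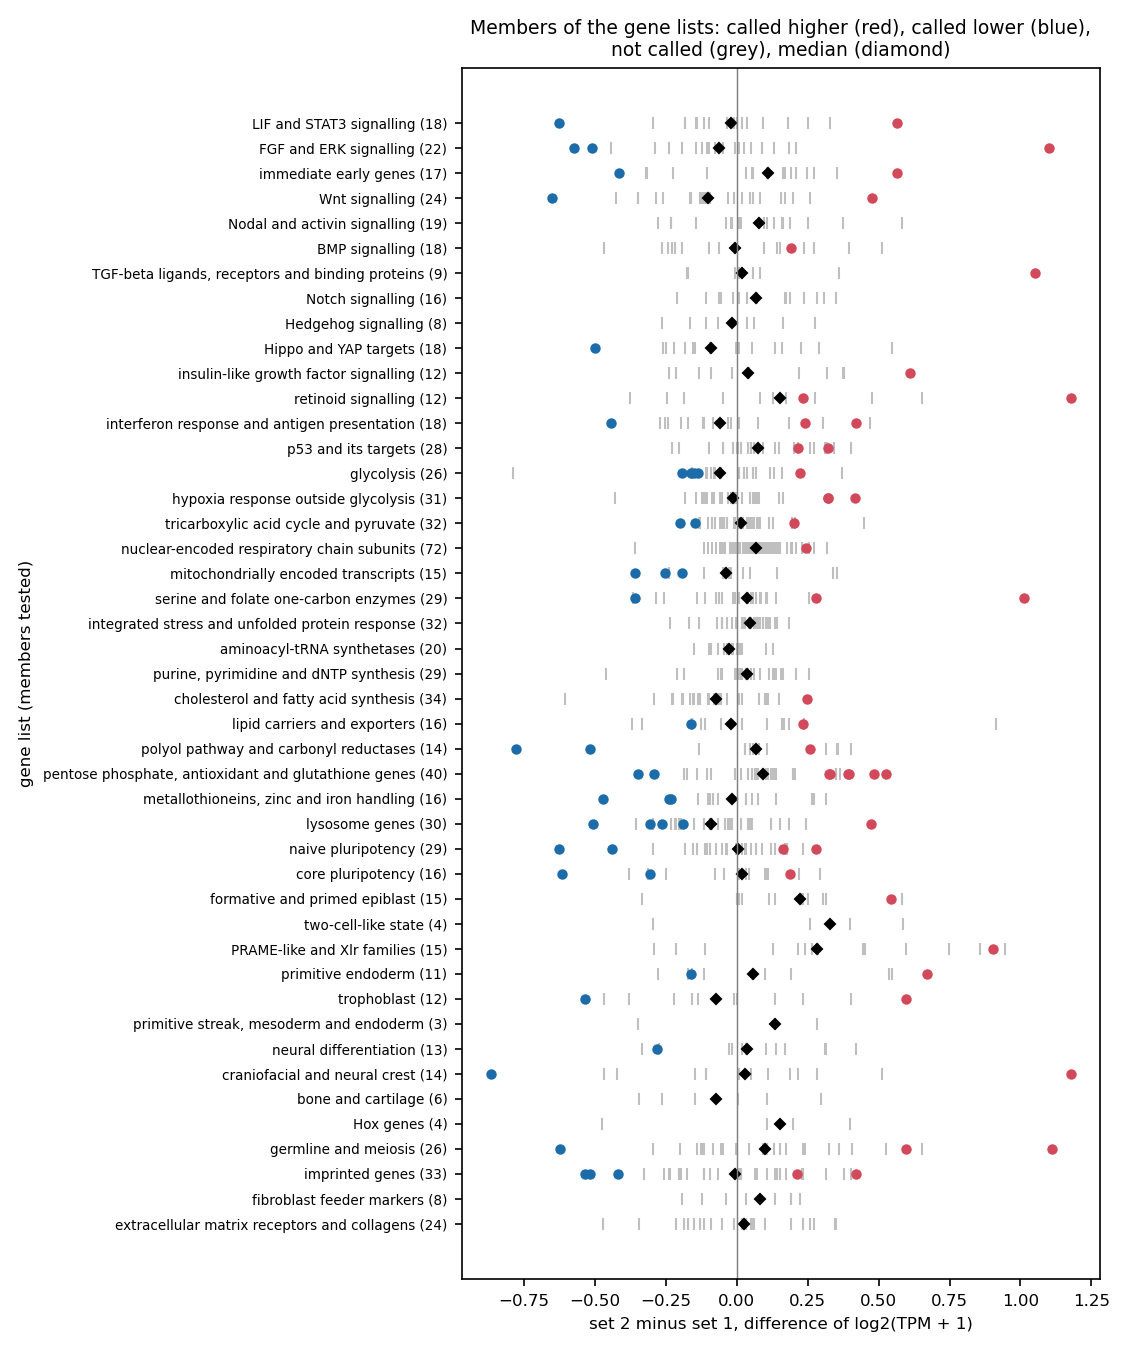
Difference between the wild-type sets (set 2 minus set 1, log2(TPM + 1)) for the tested members of each signalling, metabolism and differentiation list. Red points were called higher, blue points called lower, grey ticks were not called, and black diamonds are list medians, which lie between -0.101 for the Wnt list and 0.328 for the 4 genes of the two-cell-like list.

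Of 433 tested metabolic genes in 15 lists, 18 were higher and 22 lower (9.24% called, against 2.84% of all tested genes). As with the signalling lists, earlier results of these data were known when the lists were drawn up, so the share is a description. Calls came more often from abundant genes, and no share of the signalling, metabolism or differentiation lists was set against genes of like level. Glycolysis had 4 of 26 genes lower and 1 higher. Slc2a3, the glucose transporter GLUT3, was at 995 and 996 TPM in set 1 and 870 and 872 TPM in set 2, a difference of -0.19 ± 0.03 (limma adjusted p = 0.0217). Pgk1 (-0.16 ± 0.02), Ldha (-0.15 ± 0.02) and Tpi1 (-0.14) followed, Tpi1 being the fifth call and so named outside the rule. Pgk1 and Ldha missed the threshold with median-of-ratios scaling and with the GC correction, and Slc2a3 with the length correction. Ldhb, the other lactate dehydrogenase subunit, went the opposite way, from 225 and 226 TPM to 268 and 259 TPM (0.22 ± 0.03). The hypoxia genes outside glycolysis gave 3 rises among 31 and no fall in limma, with 4 lower at an unadjusted p under 0.05. These were Egln3, an oxygen-sensing prolyl hydroxylase (8.17 and 7.54 TPM to 10.9 and 10.7 TPM), Ddit4, and the repressor Bhlhe40 (26.6 and 26.0 TPM to 31.9 and 34.3 TPM), while the list median was -0.012.

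Of 72 nuclear-encoded respiratory chain subunits 55 had a positive difference (76.4%, against 46.4% of all tested genes), with a median of 0.067, but only Ndufb2, a complex I subunit, passed (0.24 ± 0.04, limma adjusted p = 0.0328). Of 15 mitochondrially encoded transcripts 3 fell and none rose in limma (1 higher and 4 lower at an unadjusted p under 0.05). Over all tested genes 1.68% were called lower and 1.16% higher. The 16S ribosomal RNA mt-Rnr2 fell from 369 and 362 TPM to 276 and 294 TPM, mt-Atp8 by 0.26 ± 0.05 and mt-Co1 by 0.19 ± 0.03. After quantile normalization the differences of mt-Atp8 and mt-Co1 were 0, and neither passed after the GC correction. In the tricarboxylic acid cycle list of 32 genes, the succinate dehydrogenase subunit Sdhb rose (0.20 ± 0.03), and the pyruvate dehydrogenase subunit Pdha1 (-0.20 ± 0.03) and the isocitrate dehydrogenase Idh1 (-0.15 ± 0.03) fell. Idh1 missed the threshold with median-of-ratios scaling and with the GC correction.

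The pentose phosphate, antioxidant and glutathione list held the most calls, 6 higher and 2 lower of 40, with a median of 0.092. Over all tested genes 1.16% were called higher and 1.68% lower, with a median of -0.016. Gpx4, the glutathione peroxidase that clears lipid peroxides (ENSMUSG00000075706.10, chromosome 10, 80047166 to 80056439), rose from 651 and 656 TPM to 849 and 867 TPM (0.39 ± 0.03, limma adjusted p = 0.000708). Txnip, which binds thioredoxin and restrains glucose uptake, rose from 65.8 and 65.6 TPM to 94.5 and 95.3 TPM (0.52 ± 0.04). In both genes the sets were separated by many times the gap between their replicates. Srxn1, which repairs oxidised peroxiredoxins, rose from 6.95 and 7.71 TPM to 11.6 and 9.75 TPM, and Pgls, a pentose phosphate enzyme, by 0.39 ± 0.07. Outside the rule, and named after their values were seen, Sod2 (0.33) and Nqo1 (0.33) also rose, while Gclc, the rate-limiting enzyme of glutathione synthesis (27.2 and 28.8 TPM to 21.2 and 22.4 TPM), and the pentose phosphate enzyme Rpe (-0.29) fell.

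Of 30 lysosome genes 4 fell and 1 rose, and 21 had a negative difference, with a median of -0.091. Over all tested genes 6836 of 12765 differences were negative, 1.68% of genes were called lower and 1.16% higher, and the median was -0.016. Tpp1, a lysosomal peptidase, was at 44.2 and 42.8 TPM in set 1 and at 29.1 and 31.5 TPM in set 2 (-0.51 ± 0.09, limma adjusted p = 0.0276). Atp6v0d1, a subunit of the proton pump, fell from 68.9 and 74.0 TPM to 57.0 and 58.1 TPM, and Hexa, a hexosaminidase subunit, from 93.3 and 90.1 TPM to 76.5 and 75.8 TPM. Lamp1, the abundant membrane glycoprotein, the fifth call and named outside the rule, fell from 316 and 318 TPM to 282 and 274 TPM. The exception was Laptm4b, a lysosomal membrane protein, which rose from 24.3 and 24.8 TPM to 35.2 and 33.9 TPM (0.47 ± 0.06). At an unadjusted p under 0.05, 12 of the 30 were lower and 3 higher, beside 2625 of all 12765 tested genes in either direction.

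The promoters of the 4 lowered lysosome genes are shown since E-box factors of the TFEB family are known regulators of lysosome genes. They run from 120 bases before to 30 bases after the RefSeq start (GRCm38.p6), 5′ to 3′ along the gene, with each match to the E-box CACGTG in capitals. The last sequence is the promoter of Srxn1 with matches to the AP-1 site TGANTCA in capitals, shown since AP-1 and NRF2 are known regulators of this gene. The genes and motifs were chosen after the values were seen.
Lamp1 (chr8:13159041-13159190, plus strand): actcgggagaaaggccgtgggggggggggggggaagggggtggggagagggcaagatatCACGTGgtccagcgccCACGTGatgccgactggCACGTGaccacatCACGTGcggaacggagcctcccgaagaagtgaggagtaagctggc
Atp6v0d1 (chr8:105566035-105566184, minus strand): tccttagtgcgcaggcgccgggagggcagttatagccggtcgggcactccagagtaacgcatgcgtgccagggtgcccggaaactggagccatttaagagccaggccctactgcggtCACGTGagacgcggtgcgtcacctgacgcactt
Hexa (chr9:59539420-59539569, plus strand): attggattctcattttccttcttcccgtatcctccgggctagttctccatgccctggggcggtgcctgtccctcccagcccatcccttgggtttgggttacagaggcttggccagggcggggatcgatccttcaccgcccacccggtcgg
Tpp1 (chr7:105752206-105752355, minus strand): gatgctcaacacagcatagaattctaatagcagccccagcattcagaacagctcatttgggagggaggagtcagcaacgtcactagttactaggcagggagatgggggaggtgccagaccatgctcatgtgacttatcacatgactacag
Srxn1 (chr2:152105404-152105553, plus strand): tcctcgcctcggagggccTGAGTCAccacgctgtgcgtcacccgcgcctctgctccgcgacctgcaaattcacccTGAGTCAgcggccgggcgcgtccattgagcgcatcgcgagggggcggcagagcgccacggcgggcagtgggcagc

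Lamp1 holds 4 E-boxes, which begin 61, 45, 28 and 15 bases before the start, and Atp6v0d1 holds 1, which begins 3 bases before it. Hexa and Tpp1 hold none in this window. In windows of 300 bases (250 before to 50 after the first listed RefSeq start, both strands), CACGTG was present in 7.2% of 27025 promoters and 10.7% of 9391 promoters of tested genes. It was present in 30 of 157 promoters of genes called lower (19.1%), 6 of 115 of genes called higher (5.2%) and 8 of 22 of tested lysosome genes (36.4%). The shorter ACGTG, which every CACGTG contains, was in 26.5% of tested, 33.1% of lower and 16.5% of higher promoters. TGANTCA was in 4.4% of tested, 3.2% of lower and 7.0% of higher promoters, TTCNNNGAA, a STAT site, in 6.6%, 3.2% and 7.8%, TGACNNNGC, the core of the antioxidant response element, in 14.8%, 15.9% and 10.4%, and TGACGTCA, the cyclic AMP response element, in 3.5%, 5.7% and 3.5%. These shares describe letters in a window and no binding was measured.

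Of 16 metal-handling genes 3 fell and none rose in limma (1 higher and 3 lower at an unadjusted p under 0.05). They were Slc11a1, a divalent metal transporter of phagosomes (ENSMUSG00000026177.11, chromosome 1, 74375195 to 74386062; 73.1 and 74.0 TPM to 53.5 and 52.0 TPM), the transferrin receptor Tfrc (418 and 395 TPM to 342 and 350 TPM) and the iron regulatory protein gene Ireb2 (-0.24 ± 0.05, limma adjusted p = 0.0499). The call of Ireb2 held in 4 of the 11 alternatives. That of Tfrc held in 7 of the 11 and was lost under the GC and length corrections. Over the metal list 8 differences were positive and 8 negative. Of 14 polyol and carbonyl genes 11 had a positive difference (median 0.067), while 2 were called lower and 1 higher. Of all tested genes 46.4% had a positive difference (median -0.016), while 1.68% were called lower and 1.16% higher. Sord, sorbitol dehydrogenase, fell from 14.4 and 14.2 TPM to 8.77 and 7.10 TPM (-0.78 ± 0.09, limma adjusted p = 0.00764) and the aldo-keto reductase Akr1b8 from 10.8 and 9.74 TPM to 6.83 and 6.87 TPM. Aldh2, the mitochondrial aldehyde dehydrogenase, rose from 178 and 163 TPM to 205 and 204 TPM. All of these libraries were separated by set, as were those of 54.2% of all tested genes, and the calls rest on the same libraries.

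One-carbon genes were called in both directions. Bhmt and Tdh, the threonine dehydrogenase on which mouse stem cells rely (185 and 181 TPM to 225 and 219 TPM), rose, and 1 gene fell, out of 29. In the cholesterol and fatty acid list of 34 genes, the squalene synthase Fdft1 rose (0.25 ± 0.05), while 9 genes were lower and 1 higher at an unadjusted p under 0.05 and the median was -0.073. Apoe, the lipid carrier, fell from 923 and 888 TPM to 820 and 800 TPM, and did not pass with median-of-ratios scaling. No gene passed in limma among 32 stress genes of the integrated and unfolded protein responses (4 higher and 1 lower at an unadjusted p under 0.05; Hspa5 0.14 ± 0.03, Calr 0.12 ± 0.03), 20 aminoacyl-tRNA synthetases (0 and 1; Nars -0.09 ± 0.03, Yars -0.09 ± 0.04) or 29 nucleotide synthesis genes (4 and 3; Adssl1 -0.46 ± 0.11, Uck2 0.16 ± 0.04).

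Pluripotency genes were called in both directions. Oct4 (Pou5f1), chosen after its values were seen, was at 1212 and 1200 TPM in set 1 and 1271 and 1213 TPM in set 2 and did not pass (limma adjusted p = 0.419). Nanog rose from 518 and 507 TPM to 575 and 573 TPM (0.16 ± 0.02, limma adjusted p = 0.0199, not passing after quantile scaling) and Sox2 from 270 and 276 TPM to 313 and 308 TPM (0.19 ± 0.03). Of 29 naive genes 2 rose, Tdh and Nanog, and 2 fell, Gbx2 and Tbx3, a T-box factor of the LIF network (78.0 and 83.5 TPM to 60.2 and 58.1 TPM). Their median was 0.004. Of 16 core genes Sox2 rose and 2 fell. Dnmt3l, the catalytically inactive partner of the de novo DNA methyltransferases (ENSMUSG00000000730.13, chromosome 10, 78041947 to 78063622), fell from 136 and 131 TPM to 84.7 and 88.2 TPM (-0.62 ± 0.04, limma adjusted p = 0.00047), and Rif1, a regulator of replication timing, from 140 and 138 TPM to 112 and 112 TPM.

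Of the formative and primed genes 1 was called. Otx2, the homeobox factor that opens the formative programme, rose from 10.3 and 10.5 TPM to 15.6 and 15.6 TPM (0.54 ± 0.09, limma adjusted p = 0.0241), the single call among 15. The difference was positive in 14 of the 15 and the median was 0.224, against 46.4% positive and a median of -0.016 over all tested genes. Dnmt3b, named after its values were seen, had -0.34 (limma adjusted p = 0.0807). At an unadjusted p under 0.05, 6 of the 15 were higher and 1 lower, beside 2625 of all 12765 tested genes in either direction. Lefty1, a Nodal antagonist also named after its values were seen, was at 6.20 and 5.43 TPM in set 1 and 8.42 and 9.99 TPM in set 2 and did not pass (limma adjusted p = 0.235). Its relative Lefty2 was at 138 and 132 TPM in set 1 and 137 and 134 TPM in set 2, and the libraries overlapped.

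Of genes that mark other lineages, few were expressed and fewer were called. Among 11 primitive endoderm genes, Serpinh1, a collagen chaperone made in many cell types, rose from 5.60 and 6.51 TPM to 10.2 and 10.2 TPM, and Apoe fell. Of 12 trophoblast genes Tfap2c, a factor shared by trophoblast, germ cells and stem cells, rose from 12.2 and 10.2 TPM to 18.0 and 16.9 TPM, and Peg10, an imprinted retrotransposon-derived gene, fell from 38.2 and 37.0 TPM to 25.0 and 26.2 TPM. Nefl, the neurofilament light chain, fell (-0.28 ± 0.06) as the single call among 13 neural genes, and passed in 5 of the 11 alternatives. Among 14 craniofacial and neural crest genes Crabp1 rose and Snai1 fell. No gene passed in limma among 3 primitive streak genes (0 higher and 1 lower at an unadjusted p under 0.05; Sp5 -0.35 ± 0.15, Eomes 0.13 ± 0.12), 6 bone and cartilage genes (2 and 0; Alpl 0.11 ± 0.04, Matn3 0.30 ± 0.12), 4 Hox genes (1 and 1; Hoxc12 0.40 ± 0.13), 4 two-cell-like genes (0 and 0; Ddit4l 0.59 ± 0.30, Zscan4e 0.40 ± 0.28), 24 extracellular matrix genes (3 and 2; Lama5 -0.47 ± 0.12) or 8 feeder genes (0 and 0; Vim 0.13 ± 0.09, Pdgfrb -0.19 ± 0.10). Over the 16 differentiation lists, 214 genes were tested, 11 were higher and 11 lower (10.28% called, against 2.84% of all tested genes). Earlier results of these data were known when the lists were drawn up, so this share too is a description.

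Germline and imprinted genes went both ways. Of 26 germline and meiosis genes, Sycp3 and Tfap2c rose and Sycp1, the transverse filament of the synaptonemal complex, fell from 8.19 and 9.68 TPM to 5.41 and 5.46 TPM. In the PRAME-like and Xlr families, Xlr3c, an X-linked gene with near-identical copies whose reads may be split uncertainly, rose from 3.93 and 4.27 TPM to 9.08 and 8.02 TPM, the single call among 15 genes with a median of 0.284. Of 33 imprinted genes, Ddc (0.42 ± 0.08) and Cd81 (0.21 ± 0.03, outside the rule) rose, and Peg10, Plagl1, a growth-restraining zinc finger gene (174 and 173 TPM to 112 and 130 TPM), and Impact (-0.42 ± 0.06) fell. Plagl1 also differed between mutant sets, with means of 56.0, 4.33 and 117 TPM.

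The cell cycle, histone and cohesin lists gave 2 calls. Ccnd1 was the call among 43 cell cycle genes. None of 33 replication-dependent histone genes passed in limma (6 higher and 0 lower at an unadjusted p under 0.05), with a median of 0.223; H4c8 was at 2.53 and 1.58 TPM in set 1 and 5.22 and 7.25 TPM in set 2 (1.25 ± 0.32, limma adjusted p = 0.0869) and H4c9 differed by 0.46 ± 0.16. Histone messages of this kind lack a poly(A) tail, and their near-identical copies make the assignment of reads uncertain. Smc3, a core cohesin subunit, fell from 98.0 and 95.9 TPM to 84.8 and 84.9 TPM (-0.19 ± 0.04), the single call among 24 cohesin genes. Its call held in 6 of the 11 alternatives with all libraries of both sets, and was lost under the GC and length corrections. Of the 24 genes, 2 were higher and 8 lower at an unadjusted p under 0.05. Over all tested genes 2625 of 12765 reached that level in either direction. Among 8 genes of ANKRD11, its relative ANKRD12 and the HDAC3-NCoR complex none passed in limma (0 higher and 5 lower at an unadjusted p under 0.05), with Ankrd12 at 11.5 and 11.7 TPM in set 1 and 7.91 and 8.09 TPM in set 2 (limma adjusted p = 0.07) and Tbl1xr1 at -0.31 ± 0.09. The difference of Ankrd12 was -0.49 as fitted and lay between -0.53 and -0.32 over the alternatives with all libraries, the corrections for length and GC content among them. Of the sex chromosome lists, 0 of 5 Y-linked genes passed in limma (3 higher and 0 lower at an unadjusted p under 0.05; Ddx3y 0.21 ± 0.06, Uba1y 0.56 ± 0.12) and 0 of 6 X-linked dosage genes (0 and 3; Eif2s3x -0.11 ± 0.04, Rlim -0.25 ± 0.07).

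A stretch of chromosome 14 stood apart. The genome was divided into windows of 10 Mb and genes averaging 10 TPM or more were kept, which left 227 windows with at least 10 genes. The 3 highest medians belonged to neighbouring windows on chromosome 14, 0.186 at 40 to 50 Mb (19 genes), 0.223 at 50 to 60 Mb (56 genes, 52 of them positive) and 0.183 at 60 to 70 Mb (25 genes). The other 224 windows lay between -0.173 and 0.075. Over the 100 genes of this block the median was 0.206, which is 1.17 times the level in set 1 relative to all genes at this level, and 88 of the 100 were positive. The median was between 0.198 and 0.223 in all 4 pairings of a set 2 with a set 1 library. Between the 2 libraries of a set, window medians ran from -0.072 to 0.098 in set 1 and from -0.08 to 0.077 in set 2. The block was found by looking at the values, so no test is given.

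The elevation was seen in set 2 and in no other set. Relative to the mean of the 5 sets and to all genes, the block's median was 0.178 in wild-type set 2, -0.021 in wild-type set 1 and -0.055, -0.066 and -0.049 in the mutant sets. Of 183 tested genes of any level in the block 18 were called higher (9.8%, against 1.16% of all tested genes) and 2 lower. The called members of the lists that lie here are Otx2, Tdh and Fdft1, which were all higher, and Nefl, which was lower. Further list members in the block, such as Bmp4 (0.51) and Nefm (-0.33), were not called. Other called genes of the block, named after their values were seen, include the proteasome activator subunits Psme2 (25.7 and 25.3 TPM to 41.5 and 37.9 TPM) and Psme1 (0.37). The proteasome subunit Psmb5 (98.8 and 101 TPM to 134 and 125 TPM) and the base excision repair enzyme Apex1 (117 and 119 TPM to 151 and 148 TPM) were also higher. So were Nedd8 (0.35) and Rnf17, a germ cell gene (23.9 and 23.3 TPM to 38.0 and 38.7 TPM). Most block genes moved by amounts too small to be called singly.

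**Figure D3:**
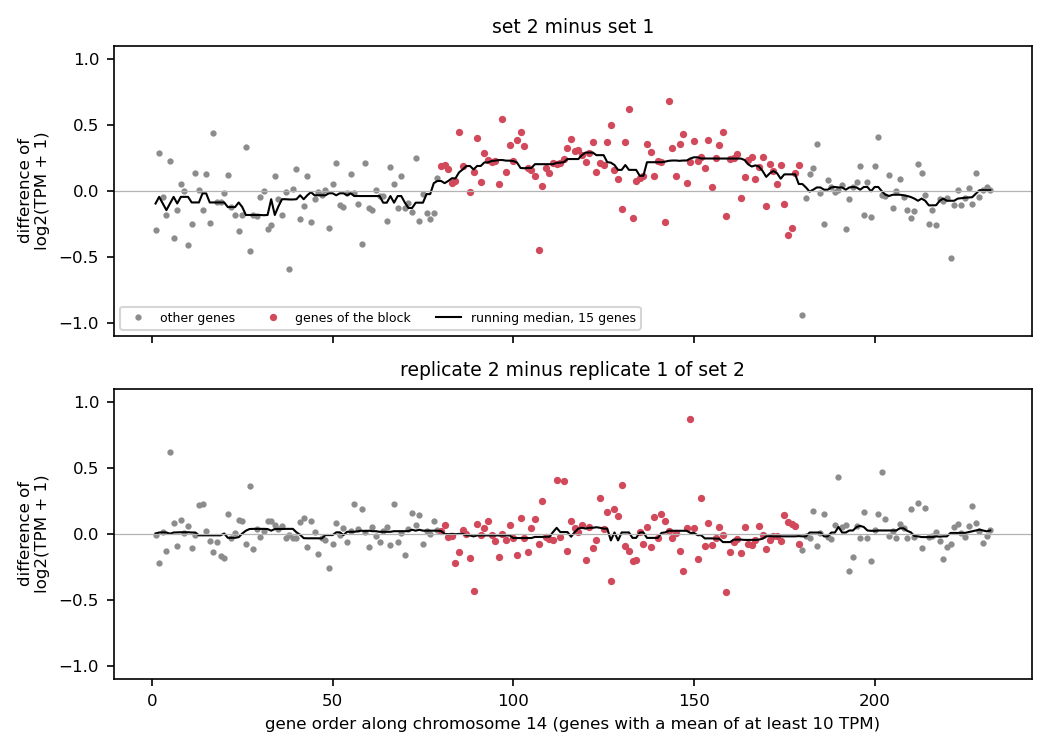
Difference of log2(TPM + 1) for genes averaging 10 TPM or more in their order along chromosome 14, between the wild-type sets (top) and between the 2 libraries of set 2 (bottom). Red points are the 100 genes of the block and the line is a running median over 15 genes, which lies near 0.2 across the block in the top panel and near 0 in the bottom panel.

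How the wild-type difference stands beside the mutant change was read from levels, since both comparisons use the same wild-type libraries and a correlation between them would follow from that. In size, the median absolute difference was 0.119 between the wild-type sets, 0.212 between the mutant mean and set 1 and 0.228 between the mutant mean and set 2. In the same fit, 5626 genes (44.1%) were called between the mutant sets and wild-type set 1 and 6046 (47.4%) between the mutant sets and set 2, contrasts that share the mutant libraries and rest on more of them than the comparison of wild-type sets does. On set means, 3 mutant against 2 wild-type sets, limma called 864 genes higher in the mutant (6.77%) and 1457 lower (11.4%). Since genes were kept by their wild-type level, genes expressed in the mutant alone are left out, so these 2 counts cannot be weighed against each other. Pearson's r over the tested genes was 0.9848 and 0.9844 within the wild-type sets, 0.9805 to 0.9815 between them, 0.9641 to 0.9728 between set 1 and mutant libraries and 0.9633 to 0.9692 between set 2 and mutant libraries. Between mutant sets the median absolute difference was 0.135 to 0.147, and 867 (6.79%), 1715 (13.4%) and 1750 (13.7%) genes were called for sets 3 and 1, sets 3 and 2 and sets 2 and 1. The wild-type sets thus gave a smaller median difference and fewer calls than any pair of mutant sets did. Large differences went the other way, with 184 genes at 1 or more between the wild-type sets against 140 for mutant sets 2 and 1, 129 for sets 3 and 1 and 173 for sets 3 and 2. The SD of 0.312 between the wild-type sets lay above the 0.308 and 0.289 of the first pairs and below the 0.326 of the last. Genes were kept by their wild-type level alone. A gene high in a single wild-type set could therefore enter, whereas a gene high only in a single mutant set could not. Counts of large differences between wild-type and mutant pairs are thus not on an equal footing, and the part of the filter was not tested.

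Several called genes had set 2 on the far side of set 1 from the mutant. Trpm1 was at 49.4 and 49.1 TPM in set 1, 23.5 and 24.0 TPM in set 2, and 112, 93.2 and 116 TPM in the mutant sets, so the mutant stood 1.098 above set 1 and 2.12 above set 2 on the log2 scale (mutant minus wild type on set means 1.61 ± 0.27, limma adjusted p = 0.0141). Sord was at a mean of 34.3, 35.0 and 36.1 TPM in the mutant sets (1.24 above set 1 and 2.02 above set 2), and Slc11a1 at 206, 192 and 196 TPM (1.42 and 1.89). For Gbx2 the mutant means were 28.0, 33.8 and 31.2 TPM and for Catip 40.7, 42.2 and 47.2 TPM. The 4 lowered lysosome genes read 57.4, 55.5 and 63.6 TPM for Tpp1, 118, 107 and 117 TPM for Atp6v0d1, 120, 116 and 117 TPM for Hexa and 405, 415 and 443 TPM for Lamp1, above both wild-type sets in each case. For Dnmt3l, lower in set 2, the mean of mutant set 1 (135 TPM) lay between the libraries of wild-type set 1, while mutant sets 2 and 3 (209 and 180 TPM) stood above them. In the other direction, Crabp1 was at 4.30, 2.69 and 2.99 TPM in the mutant sets, a log2 difference of -1.001 from set 1 and -2.18 from set 2 (set means -1.59 ± 0.33, limma adjusted p = 0.0228). Lower in the mutant sets were also Otx2 at 5.26, 3.55 and 2.03 TPM, Bhmt at 5.08, 3.24 and 6.11 TPM, Serpina3m at 0.195 to 1.195 TPM, Nanog at 350, 354 and 312 TPM, and Fabp5 at 27.7, 25.0 and 28.0 TPM. For these genes the size of a mutant change depends on which wild-type set is taken as the control.

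Other called genes had set 2 on the mutant side of set 1. Slc37a1 read 3.07, 2.06 and 3.09 TPM in the mutant sets, near its 3.93 and 4.07 TPM in set 2, so the mutant stood 2.39 below set 1 and 0.44 below set 2 (set means -1.42 ± 0.50, limma adjusted p = 0.0941). Gpx4 was at 1048, 753 and 835 TPM in the mutant sets, a range that holds set 2 (849 and 867 TPM) and not set 1 (651 and 656 TPM). Tgfbi was at 7.49, 2.76 and 4.97 TPM in the mutant sets. Ldhb was at 922, 630 and 840 TPM, Egln3 at 25.8, 20.9 and 22.6 TPM, Ddit4 at 188, 155 and 182 TPM, Bhlhe40 at 79.6, 58.4 and 60.8 TPM and Igfbp4 at 30.8, 12.1 and 17.8 TPM, with set 2 between set 1 and the mutant sets in each. Idh1 was at 110, 134 and 108 TPM and Peg10 at 2.88, 3.91 and 11.3 TPM, below both wild-type sets. The named genes therefore went both ways relative to the mutant, and no share is given.

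**Figure D4:**
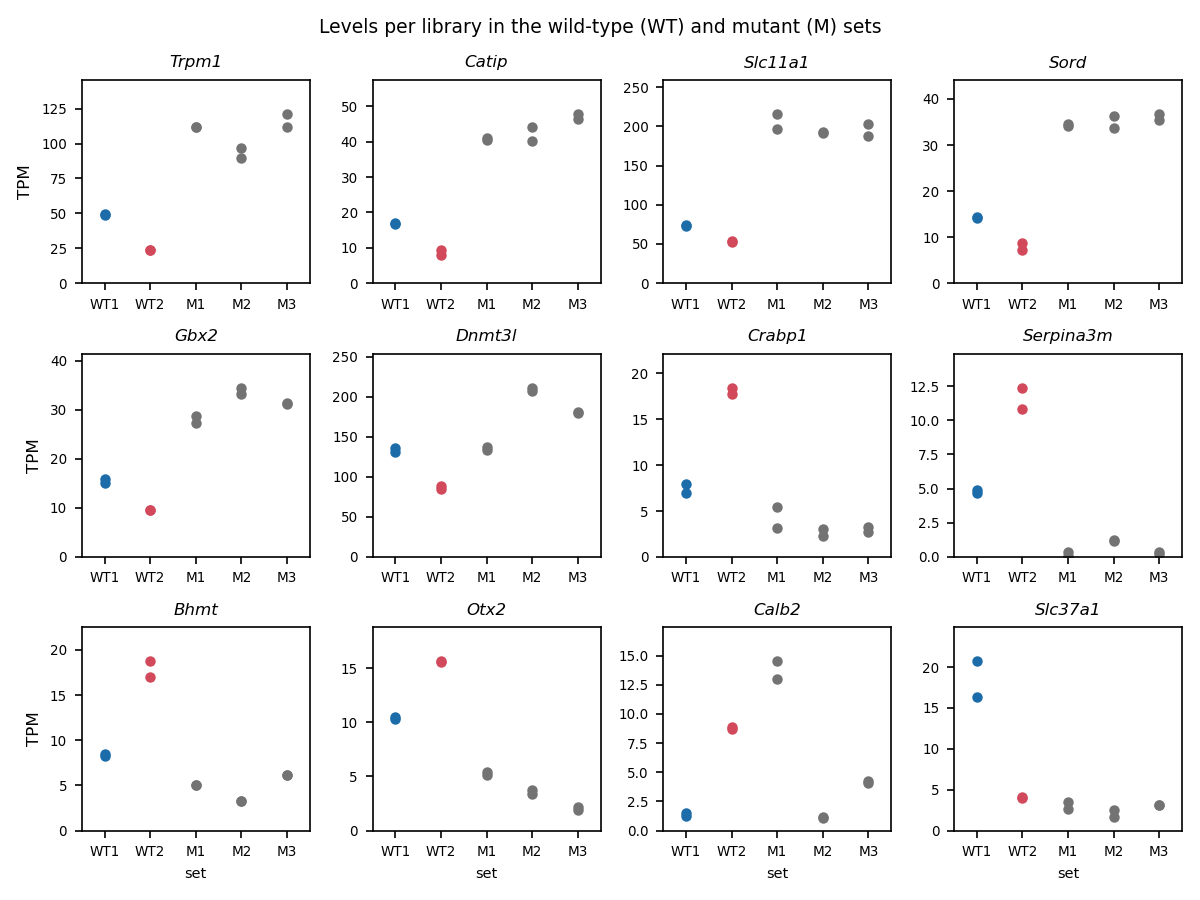
Level in TPM of 12 genes in each library of wild-type sets 1 and 2 (WT1, WT2) and mutant sets 1 to 3 (M1 to M3), 2 points a set, each axis starting at 0. Trpm1 to Dnmt3l were called lower and Crabp1 to Calb2 called higher in set 2, and Slc37a1 was called lower. Calb2 was high in wild-type set 2 and mutant set 1, and Slc37a1 was high in wild-type set 1 alone.

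Contrasts between mutant sets share no library with the wild-type comparison. Over the 12765 tested genes Spearman's rho of the wild-type difference was -0.17 with mutant set 2 minus set 1, -0.246 with set 3 minus set 1 and -0.032 with set 3 minus set 2. Over the 363 genes called between the wild-type sets rho was -0.461, -0.553 and 0.022, and Pearson's r was -0.406, -0.476 and 0.015. These are correlations across genes, which are not independent replicates, and the first pair of contrasts shares mutant set 1. The contrasts also share a relation to length and base composition. The rank correlation with transcript length was -0.223 for the wild-type difference, 0.117 for mutant sets 2 and 1, 0.181 for sets 3 and 1 and 0.042 for sets 3 and 2, and with GC content it was 0.164, -0.124, -0.231 and -0.067. The part of length and GC content in these correlations was not tested. As single genes, Calb2 differed by -2.80 between mutant sets 2 and 1 and by -1.51 between sets 3 and 1, and Tgfbi by -1.18 and -0.51, where wild-type set 2 was higher in both by 2.03 and 1.05.

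**Figure D5:**
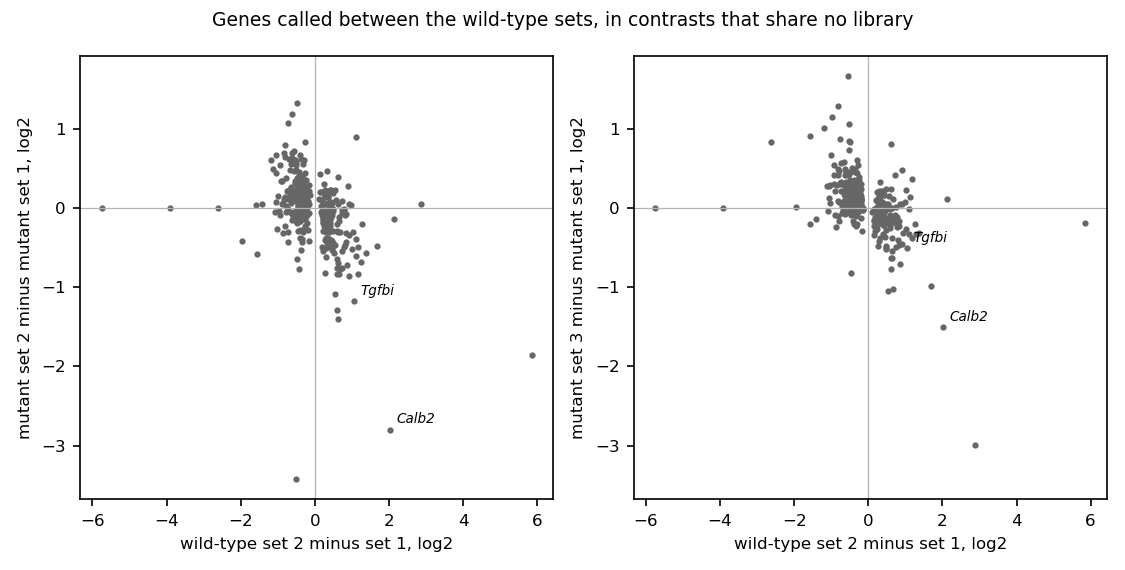
For the 363 genes called between the wild-type sets, the wild-type difference (set 2 minus set 1) against mutant set 2 minus set 1 (left) and mutant set 3 minus set 1 (right), all as differences of log2(TPM + 1). Each point is a gene, and Spearman's rho is -0.461 and -0.553.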

How the data were processed

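Poly(A) RNA of E14 cells was sequenced in 10 libraries, grouped by the set and replicate numbers in the sample titles. The authors deposited TPM values per gene and library, made per the submitters' processing notes with Trim Galore, STAR, RSEM and DESeq2 on mm10. No version, setting, strand use or annotation release is stated in the sources used here, so overlapping and antisense genes, and near-identical copies, are uncertain. TPM fixes each library's total, so depth is unknown and no counting interval is given, and the values within a library are relative to each other. Names matched all 10 columns and 0 per-sample columns were left out. Of 55401 identifiers 55141 matched GENCODE M21 (GRCm38) without version suffix, which gave positions, transcript lengths and GC content.

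Genes averaging at least 1 TPM over the 4 wild-type libraries were tested on log2(TPM + 1) with limma 3.58.1 (R 4.3.3; 10 libraries as 5 sets, two-sided; moderated by empirical Bayes along the mean-variance trend with 2.89 prior and 5 residual degrees of freedom), with Benjamini-Hochberg adjustment over 12765 genes and a threshold of 0.05. The mutant change was fitted on set means. The scripts were tested on simulated data. Genes named by rule are Ankrd11, the 15 most higher and 15 most lower called genes whose libraries do not overlap (predicted genes and -ps pseudogenes passed over), and per list up to 4 called members by size or, where none was called, the 2 smallest p, 126 genes in all, a few of which are not reported here. The 51 lists (967 tested genes) and the genes were chosen with earlier results of these data known. Of the listed names 5 matched no row. The settings varied were the pseudocount (0.1), the filter (none, or 5 TPM), median-of-ratios and quantile scaling, the wild-type libraries alone, no trend, robust moderation, a replicate block, a GC correction (lowess, span 0.3), a log2 difference of at least 1 and leaving out each library. A length correction and leaving out the chromosome 14 block were chosen after seeing the data. Plots used matplotlib 3.10.9.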

Additional observations from a re-analysis of the deposited data

How the results depend on the processing

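All 363 called genes kept their direction under every alternative that tested them, except mt-Atp8 and mt-Co1, which came to 0 under quantile scaling. The count of calls moved more. It was 101 (38 higher, 63 lower) with the 4 wild-type libraries fitted alone, of which 81 were among the 363, and 237 (130 lower) without the mean-variance trend. With no filter 26268 genes were tested and 132 were called lower. A log2 difference of at least 1 left 30 genes, 16 higher and 14 lower. Leaving out 1 wild-type library gave 51 to 75 calls, 16 to 36 higher and 29 to 39 lower; the set left with 1 library is then assumed to vary like the other sets. Zscan4e, not called, changed from 0.40 to between -0.001 (without set 1 replicate 2) and 0.798 (without set 1 replicate 1) on the log2 scale. Between mutant sets 3 and 1 the count of 867 became 446 with no filter, 454 without the trend and 531 with the GC correction, and between sets 3 and 2 the count of 1715 became 1051 with no filter. The cause of these changes was not tested. Some of these fits rest on fewer libraries and the fits with no filter on more genes. Those without the trend and with the GC correction used the same libraries and genes as the main fit. The other scalings, filters and corrections gave 358 to 451 calls, apart from 248 with no filter.

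Replicate numbers do not pair the libraries: the correlation of same-numbered deviations was 0.001 between the wild-type sets and -0.079 to 0.124 over all pairs of sets. With a replicate block 236 genes were called, 133 of them lower, and 222 were among the 363; mutant sets 3 and 1 then differed in 575 genes. Of 93 named genes with a call, 25 missed the threshold with the block, 65 with the wild-type libraries alone and 38 with no filter. With the GC correction 15 of them missed it, among them Tsc22d1, Pgls and Sycp1, and with the length correction 6. TPM keep no depth, so precision rests on 2 libraries per set.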

Other observations

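Some called genes lay next to each other on the chromosome and moved the same way. On chromosome 10, Polr2e, a subunit shared by the nuclear RNA polymerases, and Gpx4, the glutathione peroxidase that reduces lipid peroxides, were higher in set 2 by 0.21 and 0.39 on the log2 scale, with 7371 bases between them. On chromosome 7, Ifitm1, Ifitm3 and B4galnt4 were higher by 0.24, 0.42 and 0.55. On chromosome 1, Tmbim1, Catip and Slc11a1, a divalent metal transporter of phagosomes, were lower by -0.44, -0.88 and -0.47. These neighbours were picked out after their values were seen, and how many such pairs the gene order alone would give was not tested.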
